A study of Homo sapiens with 60 samples.

Results

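The cytosolic DNAJ co-chaperones described here are 7 genes, DNAJB1, DNAJB4, DNAJB6, DNAJB2, DNAJA1, DNAJA2, and DNAJA4, taken by symbol from a table of 62703 genes counted in 60 libraries. DNAJ proteins, also called HSP40 or J-domain proteins, bind unfolded clients, hand them to HSP70, and stimulate the ATPase of HSP70 through the J domain, so that the client is held tightly. Nucleotide exchange factors then release ADP and the client, and the cycle starts again. Transcripts of several of these genes are textbook targets of the heat shock factor HSF1, which binds repeated GAA units and is activated when unfolded proteins accumulate, including in cells exposed to metals that react with thiols. Of the 7 genes, 6 passed the filter on low counts, whereas DNAJA4 had 0 counts in all 60 libraries and was not tested.

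1321N1 cells, a human line derived from an astrocytoma, were left non-treated or received 2.55 µM sodium metaarsenite, 2.3 µM cadmium chloride, or mercury chloride at 20 µM, for 1.5, 3, 6, 12, or 24 h. The 20 groups of metal and time had 3 libraries each, and RNA was sequenced from the 3′ end. The doses are those the study chose as equally toxic, so that a metal here stands for 1 dose of it in 1 cell line. The study set them by cell death at a time later than any sampled here. The question was whether the metals differ in the transcripts they induce and in when they induce them. Each library held between 2215276 and 4404609 counted reads, and the level of a gene is given in CPM, the read count scaled to the size of the TMM-adjusted library. The replicates are described as technical by the submitters, so that the p values may cover less than the spread between independent cultures. In bulk RNA of this kind, a change in the number of cells that express a gene and a change in RNA per cell cannot be told apart. Of 9 astrocyte markers, GFAP, S100B, AQP4, and ALDH1L1 had at most 3 counts in any library, whereas GJA1, SOX9, and VIM were detected in all. The summed level of the 9 genes, carried by VIM, was 3600 to 5386 CPM in non-treated cells, 3149 to 5316 with arsenic, 3101 to 5889 with cadmium, and 3590 to 5726 with mercury. Of the 3 astrocyte markers that passed the filter, 1 was called lower with arsenic at 24 h in edgeR and in DESeq2, and 2 were lower at an unadjusted p under 0.05, whereas 0 were called with cadmium or mercury at that time by either tool (1 higher with cadmium and 0 with mercury at an unadjusted p under 0.05). The part of this in the results was not tested. Markers of microglia and oligodendrocytes summed to at most 2.03 and 1.15 CPM, and those of neurons, led by SYT1, to at most 21.8 CPM.

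The genes lie on different chromosomes of GRCh38: DNAJB1 on chr19:14514769-14560391 (minus strand), DNAJB4 on chr1:77979175-78017964 (plus), DNAJB6 on chr7:157335381-157417439 (plus), DNAJB2 on chr2:219279342-219286898 (plus), DNAJA1 on chr9:33025273-33039907 (plus), DNAJA2 on chr16:46955362-46973674 (minus), and DNAJA4 on chr15:78264086-78282196 (plus). In the last 400 exonic bases of each canonical transcript, where 3′ reads fall, 0% of the 50-base stretches were shared with another gene, and 0% of the bases lay in another gene on the same strand.

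DNAJB1, DNAJB4, DNAJB6, and DNAJA1 rose with each metal, and the promoters at the start of their canonical transcripts were searched for the units that HSF1 binds. RefSeq promoters of build GRCh38.p14, 300 bases each with 250 before the start, were searched on both strands for GAANNTTC and for TTCNNGAA, each its own reverse complement, and for the longer GAANNTTCNNGAA, which holds both of the shorter ones. Either short motif was present in 13.5% of all 35116 promoters (GAANNTTC in 6.77%, TTCNNGAA in 7.74%), and the long one, read in either direction, in 0.49%. The stretches with a match in these 4 genes, shown because these genes carry nearly all calls, are given 5′ to 3′ on the strand of the gene, with the matched letters in capitals. In order, they are chr19:14518408-14518507 (minus strand), chr1:78004809-78004908 (plus), chr7:157336834-157336933 (plus), chr9:33025043-33025142 (plus), and chr9:33025233-33025297 (plus), the last of which contains the start itself.
DNAJB1: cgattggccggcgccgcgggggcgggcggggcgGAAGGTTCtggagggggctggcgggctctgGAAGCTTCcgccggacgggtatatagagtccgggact
DNAJB4: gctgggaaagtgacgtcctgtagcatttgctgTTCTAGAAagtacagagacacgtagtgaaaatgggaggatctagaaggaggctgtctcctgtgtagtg
DNAJB6: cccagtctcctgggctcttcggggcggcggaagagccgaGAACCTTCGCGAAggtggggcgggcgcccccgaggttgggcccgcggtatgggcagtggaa
DNAJA1, upstream: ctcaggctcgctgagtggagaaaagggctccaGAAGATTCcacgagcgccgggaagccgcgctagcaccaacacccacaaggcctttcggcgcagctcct
DNAJA1, at the start: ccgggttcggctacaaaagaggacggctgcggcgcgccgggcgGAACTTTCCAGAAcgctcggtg

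In the windows at the canonical start, DNAJB1 had 2 short matches, DNAJB4 had 1, DNAJB6 had 1 long match, and DNAJA1 had 1 short and 1 long match. DNAJA4, which had no reads, had 2 short matches there, and the windows of DNAJA2 and DNAJB2 had 0. Among windows at other starts, 1 of DNAJB1 had 1 short match, and the others, of DNAJB1, DNAJB4, and DNAJA4, had 0. These matches describe letters in a window and do not show binding.

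**Figure D1:**
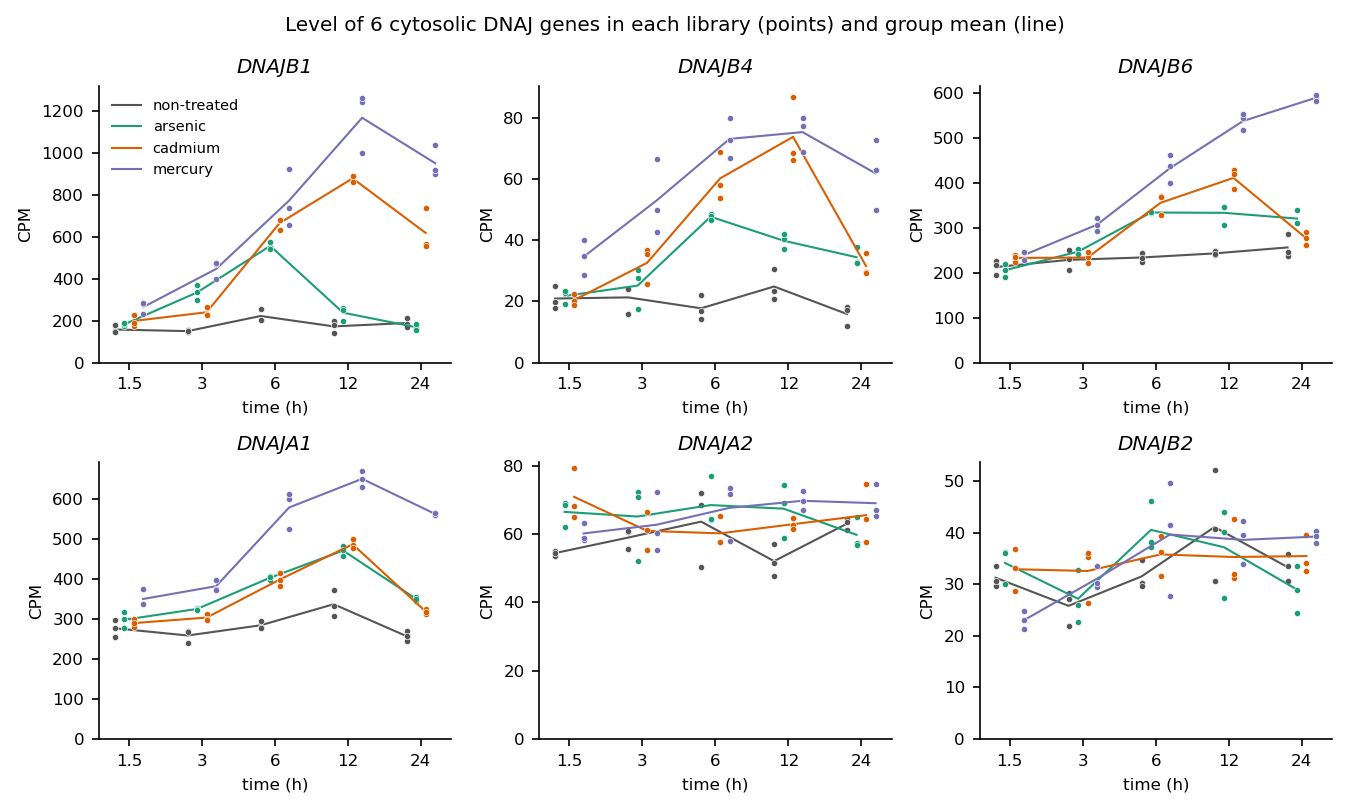
Level of the 6 tested genes in CPM (y axis, from 0) against the time of treatment in h (x axis, evenly spaced), with each library as a point and the mean of 3 libraries as a line, in grey for non-treated cells, green for arsenic, orange for cadmium, and purple for mercury. The DNAJB1 libraries reached 1263 CPM with mercury at 12 h, whereas the 3 arsenic libraries at 24 h lay between 156 and 186 CPM and overlapped the 171 to 213 CPM of non-treated cells. Over all 60 libraries, DNAJA2 stayed between 47.7 and 79.4 CPM and DNAJB2 between 21.3 and 52.0 CPM.

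Against non-treated cells of the same time, DNAJB1, DNAJB4, DNAJB6, and DNAJA1 rose with each of the 3 metals, DNAJA2 rose once, and DNAJB2 in none of the 15 comparisons. A gene was called at an adjusted p under 0.05 in edgeR's quasi-likelihood test, over all 12341 genes tested, and LFC denotes the log2 fold change. Of 30 tests per metal (6 genes at 5 times), arsenic had 13 called higher, cadmium 12, and mercury 19, of which 4, 5, and 12 had an LFC above 1. The number called lower was 0 for each metal in edgeR and in DESeq2, and at an unadjusted p under 0.05 it was 0, 0, and 1. All 44 calls belong to 5 genes, with 12 each for DNAJB1 and DNAJA1, 10 for DNAJB4, 9 for DNAJB6, and 1 for DNAJA2.

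With arsenic, 0 of the 6 genes were called higher at 1.5 h, where 0.0648% of all genes tested were, 2 at 3 h against 0.122% of all genes, 4 at 6 h against 0.608%, 4 at 12 h against 2.37%, and 3 at 24 h against 6.54%. With cadmium, the counts were 0 at 1.5 h against 0% of all genes, 1 at 3 h against 0.203%, 4 at 6 h against 1.6%, 4 at 12 h against 5.19%, and 3 at 24 h against 1.56%. With mercury, 2 were called at 1.5 h against 0.478%, 4 at 3 h against 1.39%, 4 at 6 h against 4.49%, 5 at 12 h against 8.89%, and 4 at 24 h against 13.9%. At 24 h, when 7.75%, 0.632%, and 13.9% of all genes were called lower with arsenic, cadmium, and mercury, 0 of the 6 were. In both comparisons at 1.5 h without a call, DESeq2 also called 0 of the 6, and at an unadjusted p under 0.05 there was 1 with arsenic and 2 with cadmium. Among all genes, the 0 calls with cadmium at 1.5 h compare with 4 by DESeq2 and 991 at an unadjusted p under 0.05. At 24 h, arsenic gave a median LFC of 0.12 over the 6 genes, cadmium 0.21, and mercury 1.17, whereas the medians over all genes tested were 0.00041, -0.0069, and -0.021. The 3 metals share their non-treated libraries at each time. The 7 genes were chosen with earlier results of these data known, so the shares of all genes give a scale and not a test.

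**Figure D2:**
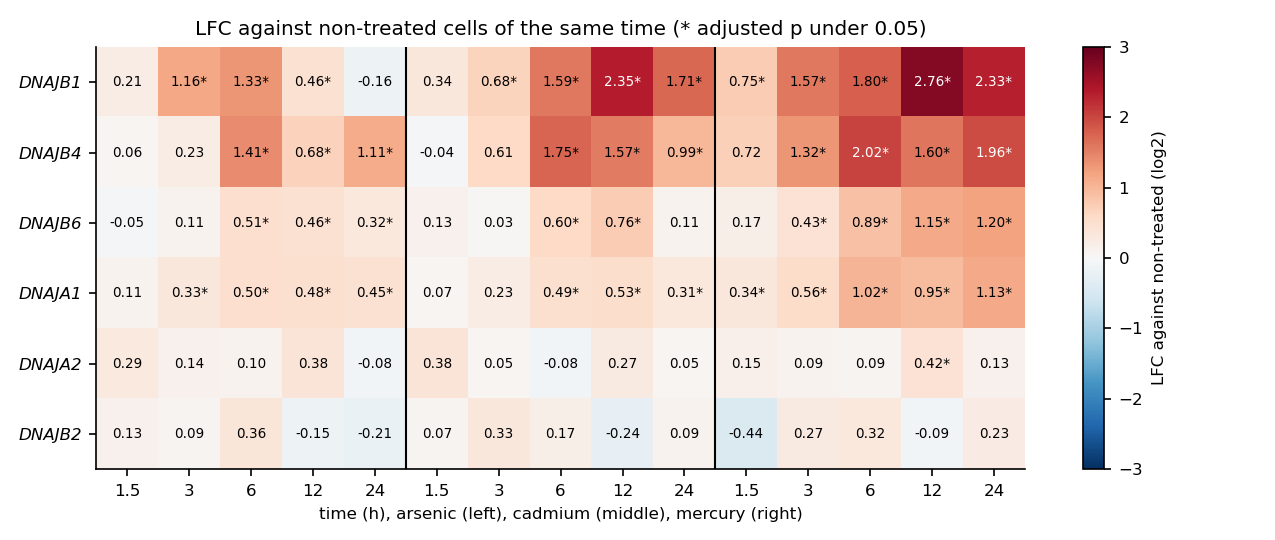
LFC of each tested gene (rows) against non-treated cells of the same time, for 5 times in h (columns) of arsenic, cadmium, and mercury, with red for higher and blue for lower and an asterisk at an adjusted p under 0.05. The largest value was 2.76 for DNAJB1 with mercury at 12 h, and DNAJB1 with arsenic went from 1.33 at 6 h to -0.16 at 24 h.

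DNAJB1, the inducible partner of HSP70 and the canonical HSP40, had the largest changes, and it was also the gene with which the metals parted most. In non-treated libraries it measured 151, 145, and 177 CPM at 1.5 h, and 182, 213, and 171 CPM at 24 h. With mercury, it was 233, 277, and 283 CPM at 1.5 h and thus higher in every library than in the non-treated ones. This was an LFC of 0.75 (SE 0.12, adjusted p = 3.39e-05 from edgeR). It was the earliest call among the 7 genes, together with DNAJA1. The mercury libraries went on to 469, 397, and 473 CPM at 3 h and to 657, 924, and 738 CPM at 6 h. At 12 h they had 998, 1242, and 1263 CPM, the highest of the series for this gene, and at 24 h 898, 1036, and 919 CPM. The LFC was 1.57 at 3 h, 1.80 at 6 h, 2.76 at 12 h (SE 0.12, adjusted p = 6.58e-29), and 2.33 at 24 h. At 12 h, this is a 6.76-fold increase from a mean of 173 ± 27.7 CPM (SD, n = 3) to 1168 ± 147 CPM (SD, n = 3).

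With cadmium, DNAJB1 measured 177, 191, and 228 CPM at 1.5 h, overlapping the non-treated libraries. It was first called at 3 h, with 264, 230.4, and 226 CPM, an LFC of 0.68 (SE 0.12, adjusted p = 5.38e-04). At 6 h the libraries had 681, 634, and 682 CPM, and at 12 h 885, 860.1, and 891 CPM, close to each other and well above the 197, 142, and 178 CPM of non-treated cells. The LFC was 1.59 at 6 h and 2.35 at 12 h (SE 0.12, adjusted p = 2.28e-25). At 24 h, 2 cadmium libraries had 563 and 555 CPM and the other 737 CPM, an LFC of 1.71.

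With arsenic, DNAJB1 rose and came back. The libraries had 174, 184, and 188 CPM at 1.5 h, 335, 297, and 372 CPM at 3 h, and 552, 575, and 543 CPM at 6 h, against 258, 205, and 204 CPM in non-treated cells at 6 h. The LFC was 1.16 at 3 h (SE 0.12, adjusted p = 1.95e-10) and 1.33 at 6 h (adjusted p = 2.56e-13). At 12 h, 261, 253, and 199.9 CPM stood against 197, 142, and 178 CPM, an LFC of 0.46 (SE 0.12, adjusted p = 0.012). This call was lost in 3 of 6 fits with a library left out, with an adjusted p of up to 0.183 without the second non-treated library. At 24 h, the arsenic libraries measured 164, 156, and 186 CPM and overlapped the non-treated ones, with an LFC of -0.16 (95% interval -0.40 to 0.08, adjusted p = 0.432).

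DNAJB4, a close relative of DNAJB1, was a low transcript in non-treated cells, at 17.8, 25.1, and 19.9 CPM at 1.5 h and 18.3, 17.2, and 12.1 CPM at 24 h. With mercury, it had 40.1, 28.8, and 34.9 CPM at 1.5 h, above all non-treated libraries, yet its LFC of 0.72 did not pass the test (adjusted p = 0.06), although it did in DESeq2 (adjusted p = 0.0364). At 3 h it had 42.6, 66.7, and 49.8 CPM, at 6 h 72.8, 79.9, and 66.8 CPM, at 12 h 68.7, 77.4, and 80.0 CPM, and after 24 h 62.9, 72.8, and 49.9 CPM. The LFC was 1.32 at 3 h (SE 0.18, adjusted p = 3.07e-07), 2.02 at 6 h, 1.60 at 12 h, and 1.96 at 24 h. At 6 h, this is a 4.07-fold increase. From 12 to 24 h, the mean fell from 75.4 to 61.9 CPM with mercury and from 24.9 to 15.9 CPM in non-treated cells. The change of effect, 0.36, was not called (adjusted p = 0.698 in edgeR). With cadmium, DNAJB4 had 68.8, 58.1, and 53.7 CPM at 6 h and 68.5, 66.2, and 86.7 CPM at 12 h. All lay above the 14.3, 16.8, and 22.2 CPM and the 30.5, 23.5, and 20.7 CPM of non-treated cells. The LFC was 1.75 (SE 0.19, adjusted p = 3.03e-10) and 1.57, and at 24 h it was 0.99 with 35.7, 29.5, and 29.5 CPM. The last of these was lost when only the 6 libraries compared were fitted (adjusted p = 0.054).

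DNAJB4 was called with arsenic from 6 h on, up to 24 h, when DNAJB1 was not. The arsenic libraries had 48.6, 47.8, and 46.7 CPM at 6 h, 37.3, 40.3, and 42.1 CPM at 12 h, and 32.8, 37.9, and 32.7 CPM after 24 h, in each case above the non-treated libraries. The LFC was 1.41 at 6 h (SE 0.19, adjusted p = 4.74e-07), 0.68 at 12 h (adjusted p = 0.0154), and 1.11 at 24 h (SE 0.20, adjusted p = 1.76e-05). The value at 12 h lost its call in 4 of 6 fits with a library left out, with an adjusted p of up to 0.127 without the third non-treated library. From 12 to 24 h, the mean fell from 39.9 to 34.5 CPM with arsenic and from 24.9 to 15.9 CPM in non-treated cells. The change of effect, 0.43, was not called (adjusted p = 0.492 in edgeR). At most 275 reads of DNAJB4 were counted in any library and at least 35, so its values carry more counting error than those of the other 3 genes that rose.

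DNAJB6, which keeps aggregation-prone proteins such as polyglutamine stretches soluble, was a steadier transcript, at 226, 217, and 195 CPM in non-treated cells at 1.5 h and 237, 287, and 246 CPM at 24 h. With mercury, it rose at each time from 3 h on, with 307, 321, and 294 CPM at 3 h and 399, 462, and 438 CPM at 6 h. At 12 h it had 544, 553, and 518 CPM, and at 24 h 592, 596, and 583 CPM. Thus its mean was highest at the last time, whereas DNAJB1 had its highest mean at 12 h. From 12 to 24 h, the effect of mercury was called as changed for neither gene. The changes were 0.06 for DNAJB6 and -0.42 for DNAJB1 (adjusted p = 0.922 and 0.306 in edgeR). The LFC of DNAJB6 was 0.43 at 3 h (SE 0.08, adjusted p = 3.11e-04), 0.89 at 6 h, 1.15 at 12 h, and 1.20 at 24 h (SE 0.08, adjusted p = 3.35e-20). With cadmium, the libraries had 328, 372, and 368 CPM at 6 h and 429, 386, and 420 CPM at 12 h, with an LFC of 0.60 and 0.76 (SE 0.08, adjusted p = 3.34e-11). At 24 h they had 291, 277, and 262 CPM, which overlaps the non-treated libraries (LFC 0.11, interval -0.05 to 0.27, adjusted p = 0.632). With arsenic, DNAJB6 had 335, 333, and 336 CPM at 6 h, 307, 348, and 347 CPM at 12 h, and 311, 339.8, and 312 CPM at 24 h. These lay above all non-treated libraries, with an LFC of 0.51, 0.46, and 0.32 (SE 0.08 each, adjusted p = 0.00266 at 24 h).

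DNAJA1, a type I DNAJ with a zinc-binding region that works with HSP70 in folding and protein import, was measured in non-treated cells at 255, 278, and 298 CPM at 1.5 h and 245, 269, and 257 CPM at 24 h. With mercury it had 336, 338, and 375 CPM at 1.5 h, above each non-treated library, an LFC of 0.34 (SE 0.07, adjusted p = 0.0064). This call was lost without a filter on low counts (adjusted p = 0.145) and in 2 of 6 fits with a library left out, with an adjusted p of up to 0.178 without the first non-treated library. The mercury libraries reached 599.9, 612, and 524 CPM at 6 h, 630.2, 651, and 669 CPM at 12 h, and 563, 559, and 565 CPM at 24 h. The LFC went from 0.56 at 3 h to 1.02 at 6 h, was 0.95 at 12 h, and ended at 1.13 at 24 h (SE 0.07, adjusted p = 2.37e-20). From 12 to 24 h, the mean fell from 650 to 562 CPM with mercury and from 337 to 257 CPM in non-treated cells. The change of effect, 0.18, was not called (adjusted p = 0.571 in edgeR).

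With arsenic and cadmium, DNAJA1 was lower than with mercury at 6, 12, and 24 h, and arsenic and cadmium differed from each other by -0.05 to 0.14 without a call. The arsenic libraries had 408, 397, and 404 CPM at 6 h and the cadmium libraries 398, 414, and 383 CPM, against 279, 296, and 277 CPM in non-treated cells. The LFC at 6, 12, and 24 h was 0.50, 0.48, and 0.45 with arsenic (SE 0.07 each) and 0.49, 0.53, and 0.31 with cadmium. At 24 h, the arsenic libraries had 356, 346, and 349 CPM and the cadmium libraries 313, 325, and 318 CPM, all above the non-treated ones. The cadmium value at 24 h (adjusted p = 0.00906) was lost without a filter on low counts (adjusted p = 0.124), with only the 6 libraries compared (adjusted p = 0.245), and without the first non-treated library (adjusted p = 0.0839). The arsenic call at 3 h, an LFC of 0.33 with 328, 325, and 323 CPM against 270.2, 267, and 239 CPM (adjusted p = 0.032), was lost in each of the 6 fits with a library left out, with an adjusted p of up to 0.388 without the third non-treated library, as well as without the filter and with only 6 libraries.

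Of the other 3 genes, DNAJA2 and DNAJB2 showed little or no change, and for DNAJA4 a change could not be measured. DNAJA2, a type I relative of DNAJA1 that supports HSP70 in refolding, had between 137 and 327 reads in each library. It was called with mercury at 12 h, with 69.6, 67.0, and 72.7 CPM against 51.5, 57.1, and 47.7 CPM, an LFC of 0.42 (SE 0.13, adjusted p = 0.0149). This call was lost without the filter (adjusted p = 0.061) and in 3 of 6 fits with a library left out, with an adjusted p of up to 0.0867 without the third non-treated library. The remaining 14 values of DNAJA2 ranged from -0.08 to 0.38. Among them, those at 1.5 and 12 h were higher at an unadjusted p under 0.05 with arsenic (0.29 and 0.38) and cadmium (0.38 and 0.27). None of these passed after adjustment. DNAJB2, a neuron-enriched DNAJ with ubiquitin-interacting motifs, had between 52 and 186 reads in each library. Its LFC ranged from -0.44 with mercury at 1.5 h to 0.36 with arsenic at 6 h, with 0 of 15 called in edgeR or DESeq2 and 2 at an unadjusted p under 0.05. At 1.5 h of mercury it had 23.0, 24.8, and 21.3 CPM against 29.6, 30.7, and 33.4 CPM, below each non-treated library (unadjusted p = 0.0221, adjusted p = 0.731). At 24 h of mercury, the interval of its LFC was -0.12 to 0.59, so that an increase as large as that of DNAJB6 lies outside it. DNAJA4, a type I DNAJ, had 0 of at least 2215276 reads in each library, which allows a level of up to 0.682 to 1.36 CPM, depending on the depth of the library and for counting error only.

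In non-treated cells, 0 of the 6 genes were called at 3 h against 1.5 h, where 0.122% of all genes were, 1 at 6 h (0.486% of all genes), 1 at 12 h (4.09%), and 0 at 24 h (3.29%). At 3 h there were also 0 in DESeq2 and 0 at an unadjusted p under 0.05. At 24 h, DESeq2 called 1, DNAJB6, and 2 had an unadjusted p under 0.05. DNAJB1 had 258, 205, and 204 CPM at 6 h, an LFC of 0.49 (SE 0.12, adjusted p = 0.037), and DNAJA1 had 371, 307, and 332 CPM at 12 h, an LFC of 0.28 (SE 0.07, adjusted p = 0.0164). Neither held in all fits: DNAJB1 lost its call in 5 of 6 fits with a library left out, with an adjusted p of up to 0.431 without the first library at 6 h, and DNAJA1 in 3, with up to 0.254 without the first library at 12 h.

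The metals were then compared directly at the same time. Of 90 values for the 6 genes, 35 were called, in each of them with the lower level for the metal named first in the order arsenic, cadmium, mercury. Between arsenic and cadmium, 0 were called at 1.5 h (0% of all genes in edgeR, or 0 genes against 3 in DESeq2 and 835 at an unadjusted p under 0.05), 0 at 3 h (0.138%) and at 6 h (1.18%), 3 at 12 h (5.77%), and 1 after 24 h (10.2%). At an unadjusted p under 0.05, each of the first 3 times had 1, and DESeq2 called 0, 1, and 0. Between arsenic and mercury, 2 were called at 1.5 h (1.56% of all genes), 3 at 3 h (1.89%), and 4 each at 6 h (4.48%), at 12 h (6.84%), and after 24 h (11.4%). Between cadmium and mercury, 1 was called at 1.5 h (0.656% of all genes) and 4 at 3 h (1.78%), and later 2 at 6 h (3.78%), 3 at 12 h (3.29%), and 4 after 24 h (20%).

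DNAJB1 separated arsenic from both other metals at 12 and 24 h, and from mercury also at the earlier times. Arsenic was lower than mercury by -0.54 at 1.5 h, -0.41 at 3 h, and -0.47 at 6 h (adjusted p = 0.00659, 0.0422, and 0.00564 in edgeR). With a library left out, these calls were lost in 2, 4, and 1 of 6 fits. At 12 h the level of DNAJB1 was 238 ± 33.1 CPM with arsenic, 879 ± 16.3 CPM with cadmium, and 1168 ± 147 CPM with mercury (SD, n = 3 each). The libraries of the 3 metals did not overlap. The arsenic level was lower than the cadmium level by an LFC of -1.89 (SE 0.12, adjusted p = 1.21e-20) and lower than the mercury level by -2.30 (SE 0.12, adjusted p = 9.94e-25). At 24 h the values were -1.87 and -2.49. At 3 h the order differed: the arsenic libraries lay above the cadmium libraries, by 0.48 (interval 0.24 to 0.72), which did not pass the test in edgeR (adjusted p = 0.0822) but did in DESeq2 (adjusted p = 0.0215). At 6 h, arsenic and cadmium differed by -0.26 (interval -0.49 to -0.03, adjusted p = 0.433). Cadmium against mercury at 1.5 h gave -0.41 (interval -0.65 to -0.18), which did not pass the test in edgeR (adjusted p = 0.0936). Cadmium was lower than mercury at 3 h (-0.90, adjusted p = 1.15e-07), 12 h (-0.41, adjusted p = 0.0244), and 24 h (-0.62, adjusted p = 2.57e-05). The value at 12 h was lost in 5 of 6 fits with a library left out, with an adjusted p of up to 0.152 without the second mercury library.

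DNAJB6, DNAJA1, and DNAJB4 were lower with arsenic and with cadmium than with mercury at 24 h. At 24 h, DNAJB6 was at 321 ± 16.3 CPM with arsenic, 277 ± 14.2 CPM with cadmium, and 590.4 ± 6.64 CPM with mercury (SD, n = 3 each). The LFC of arsenic against mercury was -0.88 and that of cadmium against mercury -1.09 (SE 0.08 each, adjusted p = 5.80e-14 and 8.13e-18). DNAJA1 at 24 h gave -0.68 and -0.82 (SE 0.07 each, adjusted p = 4.38e-11 and 6.23e-14), and DNAJB4 gave -0.84 and -0.96 (adjusted p = 3.41e-04 and 2.29e-05). Arsenic against cadmium did not pass the test in edgeR for these 3 genes at 24 h, with intervals of 0.05 to 0.37 for DNAJB6, -0.01 to 0.28 for DNAJA1, and -0.24 to 0.48 for DNAJB4. For DNAJB6, where each arsenic library lay above each cadmium library, DESeq2 did call the difference (adjusted p = 0.0467). At 12 h, DNAJB4 was lower with arsenic than with cadmium, by -0.89 (SE 0.17, adjusted p = 1.96e-04), whereas cadmium and mercury differed by -0.03 (interval -0.36 to 0.30). Of the 35 calls between metals, 12 were lost in at least 1 alternative, and those of DNAJB1 against arsenic at 12 and 24 h and of DNAJA1, DNAJB4, and DNAJB6 against mercury at 24 h were not among them.

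**Figure D3:**
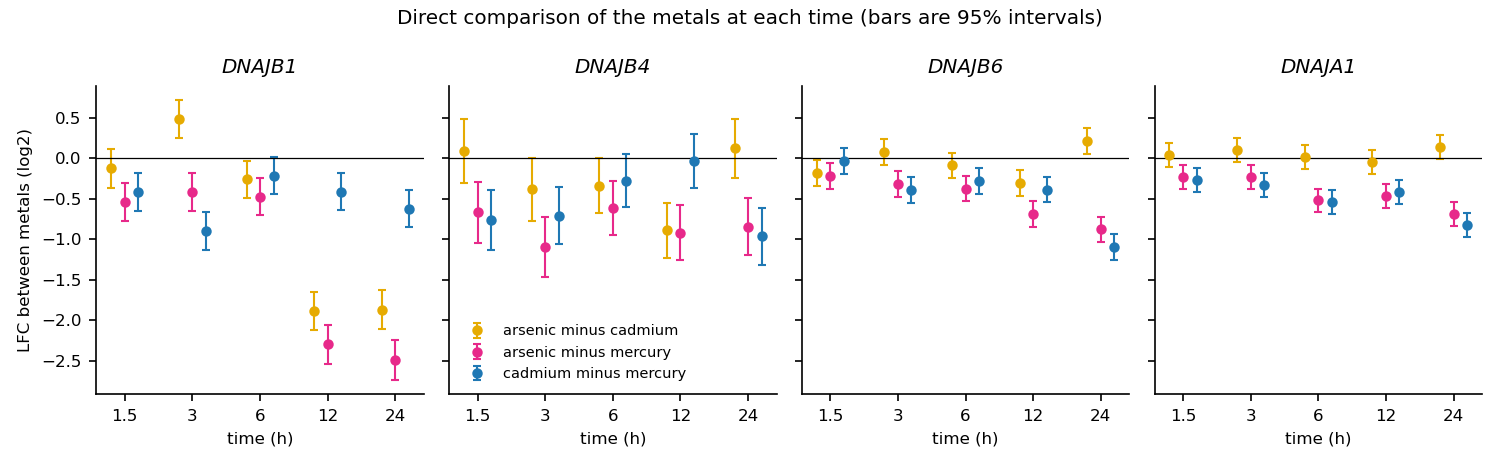
LFC between metals (y axis, the level with the first metal relative to the second) at 5 times in h (x axis) for the 4 genes that rose with each metal, with 95% intervals as bars. Yellow points give arsenic minus cadmium, pink points arsenic minus mercury, and blue points cadmium minus mercury. DNAJB1 drops to -1.89 and -2.30 for the arsenic comparisons at 12 h, whereas for DNAJA1 arsenic minus cadmium stays between -0.05 and 0.14.

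How the effect of each metal changed with time was tested as a difference of LFC between 2 times. From 3 to 12 h, the effect of arsenic changed for 1 of the 6 genes (1.03% of all genes), that of cadmium for 3 (4.89%), and that of mercury for 3 (2.93%). From 12 to 24 h, the counts were 1 for arsenic (1.57%), 1 for cadmium (0.381%), and 0 for mercury (0.624%), where DESeq2 also called 0 and 1 gene had an unadjusted p under 0.05. From 3 to 12 h, the effect on DNAJB1 fell by 0.70 with arsenic (SE 0.17, adjusted p = 0.0209) and grew by 1.67 with cadmium (SE 0.17, adjusted p = 3.39e-11) and by 1.18 with mercury (SE 0.17, adjusted p = 1.44e-06). The arsenic value lost its call in 5 of 12 fits with a library left out, with an adjusted p of up to 0.121 without the first non-treated library at 12 h. DNAJB6 grew by 0.73 with cadmium and by 0.72 with mercury in the same interval (SE 0.11 each). From 12 to 24 h, the effect of cadmium on DNAJB6 fell by 0.65 (SE 0.11, adjusted p = 9.77e-04), whereas that of mercury changed by 0.06 (interval -0.17 to 0.28). The effect of cadmium on DNAJB1 changed by -0.63 in that interval, which missed the threshold in edgeR (adjusted p = 0.0662) and passed it in DESeq2 (adjusted p = 0.025).

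The share of DNAJB1 among the 7 genes differed between the groups. Because each transcript gives its reads from the 3′ end, this share, in percent of their summed CPM, can be followed without a correction for gene length. In non-treated cells, its mean share was between 19.7% and 26.0% at the 5 times. With mercury it was 27.2% ± 1.60 at 1.5 h and 34.8% ± 2.90 at 3 h, then 39.1% ± 3.05 at 6 h, then 45.8% ± 2.85 at 12 h, and last 41.8% ± 1.73 (SD, n = 3 each). With cadmium it was 45.1% ± 0.485 at 12 h and 45.7% ± 4.24 at 24 h. With arsenic it was 38.4% ± 1.07 at 6 h and 17.5% ± 1.55 at 24 h, when non-treated cells had 23.1% ± 1.07, and these libraries did not overlap. The summed level of the 7 genes at 24 h was 815 ± 59.5 CPM in non-treated cells, 963 ± 7.54 CPM with arsenic, 1346 ± 96.6 CPM with cadmium, and 2274 ± 81.9 CPM with mercury. These shares describe the libraries and were not tested.

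The other J-domain proteins were followed by place in the cell. Of 20 other cytosolic and nuclear members, 15 were tested, and at 24 h edgeR called 0 higher for arsenic and for cadmium and 4 for mercury, beside 6.54%, 1.56%, and 13.9% of all genes tested. DESeq2 also called 0 higher for the first 2 metals, and at an unadjusted p under 0.05 there were 2 and 1. DNAJC2, which acts at the ribosome, went from 264 CPM in non-treated cells to 357 CPM with mercury, an LFC of 0.44 (adjusted p = 2.57e-04), and DNAJC7 and DNAJC5 each rose by 0.32. The fourth was DNAJC6, the neuronal auxilin, at 2.17 and 7.52 CPM and hence with few reads (it and DNAJC7 were named after their values were seen). DNAJC21, a ribosome biogenesis factor, was lower with cadmium (-0.33) and with mercury (-0.32), where 0.632% and 13.9% of all genes were called lower. Over the 15 genes, arsenic gave a median LFC of 0.17 at that time, cadmium one of 0.04, and mercury one of 0.05.

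Of 12 J-domain proteins of the ER, which serve the ER HSP70 BiP, 3 were called higher at 24 h for arsenic, 0 for cadmium (1 in DESeq2 and 2 at an unadjusted p under 0.05), and 6 for mercury, beside the same shares of all genes. DNAJB9, a reporter of the unfolded protein response, was at 10.4 CPM in non-treated cells, 23.1 CPM with arsenic, 13.1 CPM with cadmium, and 35.1 CPM with mercury, an LFC of 1.14, 0.35, and 1.75. SEC63, which couples BiP to the translocon, rose by 0.76 with arsenic and 0.51 with mercury. DNAJC1 rose by 0.67 and 0.82. At 12 h, 4 of the 12 were called higher with cadmium, beside 5.19% of all genes. Of 8 mitochondrial J-domain proteins, 7 were tested, and 2 were called higher at 24 h with arsenic (DNAJA3 at 0.62, DNAJC19 at 0.51), 0 with cadmium (0 in DESeq2 and 1 at an unadjusted p under 0.05), and 2 with mercury (HSCB at 0.91, DNAJA3 at 0.46), against 6.54%, 1.56%, and 13.9% of all genes.

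**Figure D4:**
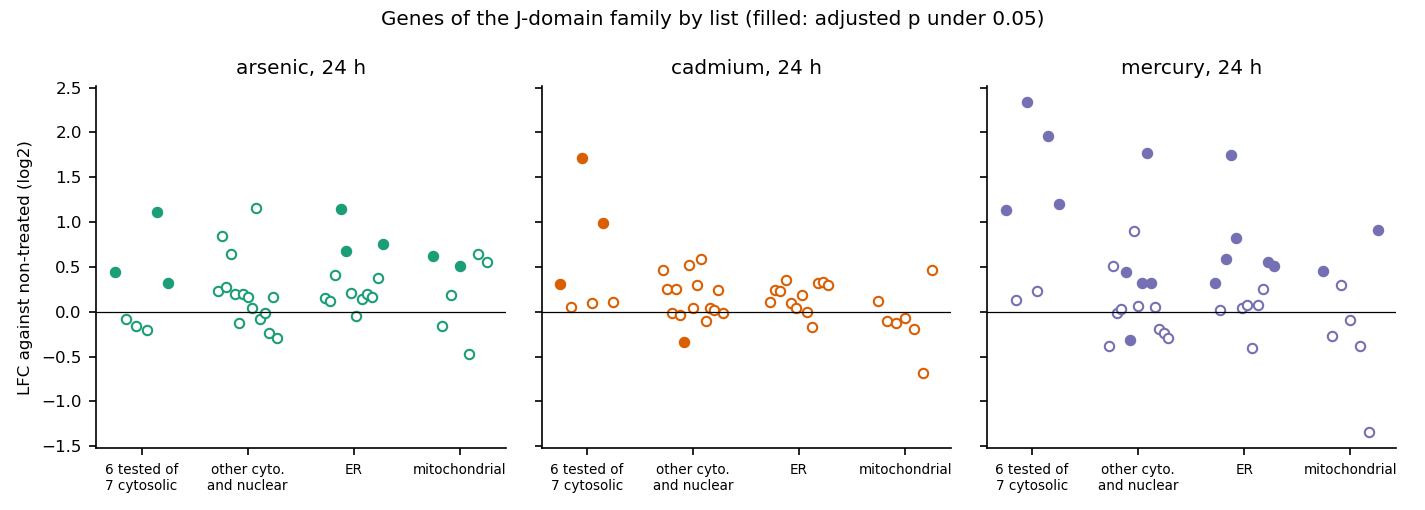
LFC at 24 h against non-treated cells (y axis) for the tested genes of 4 lists of J-domain proteins (x axis), in 1 panel for each metal, with filled points at an adjusted p under 0.05. With mercury, DNAJB1 and DNAJB4 stand at 2.33 and 1.96, and the highest values of the other lists are 1.78 for DNAJC6 and 1.75 for DNAJB9.

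HSP70 proteins are the machines these co-chaperones serve. Of 21 HSP70 genes and nucleotide exchange factors, 20 were tested, and at 24 h arsenic had 9 called higher, cadmium 7, and mercury 14, with 2 called lower for mercury (STUB1 and BAG5, named after their values were seen). Of all genes, 6.54%, 1.56%, and 13.9% were called higher and, with mercury, 13.9% lower. The median LFC was 0.44, 0.28, and 0.77. HSPA1A and HSPA1B, the inducible HSP70 genes, are near copies, and reads may be split between them. HSPA1B was at 49.8 CPM in non-treated cells at 24 h, 150.5 CPM with arsenic, 508 CPM with cadmium, and 1388 CPM with mercury, an LFC of 1.60, 3.35, and 4.80. HSPA1A gave 1.59, 6.32, and 6.51. HSPA6, a strictly inducible HSP70 gene, was close to undetected in non-treated cells, at 0.0859 CPM where 3 counts are 0.773 to 0.922 CPM. It was at 1.52, 204, and 389 CPM with arsenic, cadmium, and mercury, and the arsenic value also rests on few reads. Of 14 genes for HSP90 and its cochaperones, 1 was called higher at 24 h with arsenic (PPID at 0.44), 2 with cadmium (HSP90AA1 and FKBP4; PPID and FKBP4 were named after their values were seen), and 9 with mercury, beside the same shares of all genes called higher. HSP90AA1, the stress-inducible cytosolic HSP90, gave an LFC of 0.12 with arsenic (adjusted p = 0.238) and 0.57 with cadmium, and with mercury it went from 12124 to 24177 CPM. CHORDC1, an HSP90 cochaperone, gave 1.46 with mercury and AHSA2P, a transcribed pseudogene of an HSP90 activator, 0.88, whereas their values with arsenic and cadmium did not pass the test.

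For each of the 4 genes that reached an LFC above 1, the most similar genes were those with the highest correlation of mean log2 CPM over the 20 groups, over the 7247 candidates whose mean count reached 50. Each point is the mean of 3 libraries, and the groups share metals and times, so these values are descriptions. For DNAJB1 they were HSPA6 and HSPH1 (Pearson r = 0.972 each) and HSPA1B (0.958). For DNAJB4 they were BAG3 (0.958), a nucleotide exchange factor of HSP70, CHORDC1 (0.953), and STC2 (0.942). For DNAJA1 they were CHORDC1 (0.958), STC2 (0.939), and CACYBP (0.938). For DNAJB6 they were UBQLN1 (0.956), HSP90AB1 (0.943), and UGDH (0.938). HSPA6 had few reads at 24 h in non-treated cells (0.0859 CPM) and with arsenic (1.52 CPM). Its r with DNAJB1 thus rests in part on values near the floor. Between the members themselves, r was 0.928 for DNAJA1 with DNAJB6, 0.916 for DNAJA1 with DNAJB4, and 0.867 for DNAJB1 with DNAJB4, while DNAJB2 had 0.304 to 0.546 with the others.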

How the data were processed

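Per the labels, libraries were made by 3′ mRNA sequencing of total RNA, and the submitters' processing notes name STAR 2.7.9a and GRCh38. The authors counted reads on exons by strand, leaving out reads that overlap more than 1 gene, and deposited whole-number counts per gene without normalization, for 62703 genes and 92 spike-ins with 0 counts. Here, the 60 libraries were fitted in edgeR 4.0.16 (R 4.3.3) with 20 groups, TMM factors (0.934 to 1.03), and filterByExpr (minimum count 10, minimum total 15), which left 12341 genes. The common biological coefficient of variation was 0.120. P values of the quasi-likelihood test were corrected over all genes tested (Benjamini-Hochberg), separately for 40 comparisons. Library totals were 2215276 to 4404609, at which 3 counts are 0.682 to 1.36 CPM. Intervals and floors cover the spread between libraries or counting error only.

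The members and gene lists were chosen with earlier results of these data known. Genes named are the members, from each list the 3 called genes that changed most at 24 h (mean count 50 or more), and the 3 genes most like each member. Alternatives were DESeq2 1.42.0, RLE size factors, no filter, a minimum count of 30, a replicate block, the 6 libraries compared, and leaving out each library. The fit of only the 6 libraries was run for comparisons with non-treated cells of the same time alone. On simulated counts for mercury at 24 h, 197 of 200 changed genes and 9 unchanged ones among 12226 were called. The changed genes had a mean count of 50 or more and a simulated LFC of at least 1 in size. Recovery of smaller changes was not tested. Replicates were not copies (lowest chi-square per degree of freedom 1.99 over 60 pairs). Same-numbered libraries deviated together in 0 of 45 pairs (correlation over 0.1), and numbers were therefore not treated as pairs. Promoters came from RefSeq tables of GRCh38.p14, and overlaps at the 3′ end were checked with a later GENCODE release than the counts use.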

Additional observations from a re-analysis of the deposited data

Results flagged for a closer look

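The effect of a metal differed between times for 9 of 36 values tested, by the difference of LFC itself in edgeR. From 3 to 12 h, DNAJB1 changed by -0.70 with arsenic (adjusted p = 0.0209), for cadmium by 1.67 (adjusted p = 3.39e-11), and for mercury by 1.18 (adjusted p = 1.44e-06). In the same interval, DNAJB6 changed under cadmium by 0.73 (adjusted p = 1.23e-05) and under mercury by 0.72 (adjusted p = 1.20e-05), DNAJB4 by 0.96 with cadmium (adjusted p = 0.0209), and DNAJA1 by 0.39 with mercury (adjusted p = 0.0244). From 12 to 24 h, DNAJB1 changed by -0.62 with arsenic (adjusted p = 0.0413) and DNAJB6 by -0.65 with cadmium (adjusted p = 9.77e-04). With a library left out, both arsenic values of DNAJB1 lost their call in 7 of 12 fits (12 to 24 h, adjusted p up to 0.216 without the second non-treated library at 12 h) and 5 of 12 fits (3 to 12 h, adjusted p up to 0.121 without the first). The cadmium value of DNAJB4 lost it in 5 of 12 fits (adjusted p up to 0.0965 without the second cadmium library at 3 h), and the mercury value of DNAJA1 in 6 of 12 (adjusted p up to 0.0733 without the second non-treated library at 12 h) and without a filter on low counts (adjusted p = 0.162).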

How the results depend on the processing

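Of 90 called values of single genes, 65 passed the test under every alternative tried, 25 lost it under at least 1, and 0 changed direction. Against non-treated cells, 7 of 44 calls were lost under at least 1 alternative, between metals 12 of 35, and for changes with time 4 of 9. Only the first of these faced the fit of the 6 libraries compared. With a library left out, the calls numbered 11 to 13 for arsenic (13 with all libraries), 11 to 12 for cadmium (12), 18 to 20 for mercury (19), 32 to 35 between metals (35), 0 to 2 in non-treated cells over time (2), and 6 to 10 for changes with time (9). The count in non-treated cells was 1 without a filter on low counts. It was 0 without the first or the second library at 1.5 h, and 1 without any library at 6 h or the first at 12 h. With the replicate block, the counts were 13, 12, 19, 34, 2, and 9 in the same order. The block ended 1 call, DNAJB4 between arsenic and mercury at 1.5 h (adjusted p = 0.0509), and the numbers did not pair the libraries (median correlation of deviations -0.00799, from -0.278 to 0.0837 over 45 pairs). DESeq2 called DNAJB1 between arsenic and cadmium at 3 h (adjusted p = 0.0215), which edgeR did not. Depth limits DNAJB4, DNAJB2, and DNAJA2 most. DNAJA4 had 0 counts in all 60 libraries, and the reason was not tested.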
